A study of Mus musculus with 12 samples.

Results

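Lysosome genes and the transcription factors of the TFEB family were examined by RNA-Seq in the mouse macrophage line RAW264.7 after its cells had taken up endothelial extracellular vesicles (EVs). The set was a list of 43 genes in 8 roles: 8 lysosome membrane proteins, 9 cathepsins and other peptidases, 8 glycosidases, 3 sulfatases and sulfamidase, 6 lipid and acyl hydrolases and lipid carriers, 5 subunits of the proton pump, progranulin, and the 3 transcription factors Tfeb, Tfe3 and Mitf. Genes were kept where at least 3 of the 12 libraries held at least 10 estimated counts. All 43 passed, each with at least 10 counts in all 12 libraries, among 13906 genes that passed of 35865 with a listed transcript.

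The EVs came from MS-1 cells, a mouse endothelial line, and had been electroporated with a synthetic miRNA mimic. Every RAW264.7 culture received EVs for 48 h at 3 µg of EV protein per ml, so no library came from untreated cells. The control group (ctrl-EVs) received EVs carrying a control mimic, named in the study's methods as the worm miRNA cel-miR-67, and the mimic was miR-222-3p, miR-183-5p or miR-142-5p in the other groups, with each group named after its miRNA (for example miR-142-5p-EVs). Each group had 3 libraries, numbered 1 to 3 in the sample titles, and what a number stands for is not stated. The study's methods say in general that experiments were repeated at least 3 times, but the sources used here do not say whether the 3 libraries of a group came from separate cultures or runs, so the p values measure only the spread between these libraries. All groups are one cell line in culture, and a mimic raises a miRNA by delivery and not from its own gene.

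Lysosomes are acidic organelles that break down proteins, glycans, lipids and nucleic acids, and macrophages depend on them to digest what they engulf. The proton pump of the lysosome membrane, the V-ATPase, acidifies the lumen, in which cathepsins cut proteins, glycosidases and sulfatases trim sugar chains, and lipases and lipid carriers clear lipids. Tfeb, Tfe3 and Mitf are related basic helix-loop-helix leucine zipper proteins that move to the nucleus when mTORC1 activity at the lysosome falls, and there bind E-box sequences in the promoters of lysosome genes. Because their activity is set largely by location in the cell, mRNA levels do not report it.

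The sequences behind the comparisons are given first. The mature forms of the delivered miRNAs, taken from RefSeq on build GRCm38.p6, are printed with the seed (bases 2 to 8, which pair with targets) in capitals. The study lists its miR-222-3p mimic in a shorter form, without the last bases printed here and with the same seed. The 3 seeds differ from one another, so the miRNAs form no seed family.

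miR-142-5p (mmu-miR-142a-5p, chr11:87756867-87756887, + strand): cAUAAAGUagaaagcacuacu

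miR-183-5p (mmu-miR-183-5p, chr6:30169711-30169732, − strand): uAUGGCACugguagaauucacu

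miR-222-3p (mmu-miR-222-3p, chrX:19146901-19146923, − strand): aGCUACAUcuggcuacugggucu

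Sites complementary to a seed (ACTTTAT for miR-142-5p, GTGCCAT for miR-183-5p and ATGTAGC for miR-222-3p, on the mRNA strand) were sought in the 3′ UTR of each gene's most expressed coding transcript. A miR-142-5p site was held by 5 of 43 members (11.6%) against 14.0% of the 12573 tested genes with a 3′ UTR. For miR-183-5p it was 4 of 43 (9.30%) against 8.90%, and for miR-222-3p 4 of 43 (9.30%) against 9.40%, so the members held such sites about as often as other genes. The members with a miR-142-5p site were Mcoln1, Npc1, Npc2, Mitf and Ppt1. Those with a miR-183-5p site were Npc2, Scarb2, Tpp1 and Galns, and those with a miR-222-3p site were Ctsb, Scarb2, Tpp1 and Atp6v1b2. Sites in Mitf, Npc2, Scarb2 and Atp6v1b2 are shown because they link a delivered miRNA to a regulator, a lipid carrier, a receptor and a pump subunit of the set, with the seed match in capitals.

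Mitf, miR-142-5p site (transcript Mitf-202, GRCm38 chr6:98018220-98018244, + strand): cttcaggagACTTTATaatttacct

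Npc2, miR-142-5p site (Npc2-201, GRCm38 chr12:84756228-84756252, − strand): accagctagACTTTATccatagaaa

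Npc2, miR-183-5p site (Npc2-201, GRCm38 chr12:84757023-84757047, − strand): atggaatcaGTGCCATatgatgaac

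Scarb2, miR-222-3p site (Scarb2-201, GRCm38 chr5:92442198-92442222, − strand): aaactcactATGTAGCataggttga

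Atp6v1b2, miR-222-3p site (Atp6v1b2-201, GRCm38 chr8:69113443-69113467, + strand): ttgtggcacATGTAGCaatgtttct

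The promoters of the members were searched for the E-box that the TFEB family is known to bind. Windows of 300 bases, from 250 before to 50 after a gene's start in RefSeq (GRCm38.p6), were at hand for 36 of the 43 members. CACGTG, which reads the same on both strands, was found for 13 of 36 members (36.1%), against 8.09% of 27025 genes and 11.3% of the 10353 tested genes with a window. The longer match GTCACGTG, searched on both strands and always overlapping a CACGTG, was found for 10 of 36 (27.8%) against 2.55% and 4.46%. A palindrome TCACGTGA was held by 7 of 36 (19.4%) against 1.12% and 2.02%. Lamp1 held 4 copies of CACGTG within 61 bases before its start, and Ctsa, Ctsd, Cln3, Gla and Mcoln1 held 2 each. The examples printed, with CACGTG in capitals, are those of genes whose levels are described further on, and a match is a description of the letters and not evidence of binding.

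Lamp1 (chr8:13159121-13159150, + strand, 28 bases before the start): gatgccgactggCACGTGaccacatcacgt

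Ctsa (chr2:164833749-164833778, + strand, 12 bases before the start): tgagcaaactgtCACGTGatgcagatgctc

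Glb1 (chr9:114401018-114401047, + strand, 48 bases before the start): ctgcttctgagtCACGTGgcctacagaggc

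Sgsh (chr11:119355522-119355551, − strand, 29 bases before the start): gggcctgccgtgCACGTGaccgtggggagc

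Cln3 (chr7:126583340-126583369, − strand, 121 bases before one of its starts): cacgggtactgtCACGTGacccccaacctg

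Naglu (chr11:101070009-101070038, + strand, 73 bases before the start): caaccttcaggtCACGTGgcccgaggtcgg

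Atp6v0d1 (chr8:105566050-105566079, − strand, spanning the start): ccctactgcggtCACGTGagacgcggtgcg

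The labels of cell identity were checked before the results. The libraries held 16294611 to 22974853 estimated counts, and 12 of 12 macrophage markers passed the count filter, with a summed level of 1996 to 3388 TPM (a read share scaled for transcript length). Of 12 endothelial markers, listed because the EVs came from endothelial cells, 6 passed and 9 had a mean under 1 TPM, with a sum of 15.5 to 34.3 TPM. Of 9 osteoclast markers 7 passed and 6 had a mean under 1 TPM, with a sum of 33.0 to 55.0 TPM. Of 8 dendritic and granulocyte markers 1 passed and 7 had a mean under 1 TPM, with a sum of 4.09 to 7.28 TPM. Libraries of 1 number stood together: mitochondrial genes held 4.44% to 4.59% of counts in number 1, 4.85% to 5.38% in number 2 and 3.45% to 3.89% in number 3. On the log2(TPM + 1) scale the mean of all tested genes was shifted in number 2, at −0.186 to −0.074 against the gene means, and the mean transcript length was 1.25 to 1.27 kb against 1.29 to 1.40 kb in the other numbers. The ctrl-EV library of number 3 stood apart in how its levels followed GC content, with a slope of 0.131 per 10 points of GC against −0.0892 to 0.0639 in the others. In bulk RNA, fewer cells of a type and less RNA per cell cannot be told apart.

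Lysosome genes were among the abundant mRNAs of these macrophages. Together the 43 members held 1.38% to 1.90% of a library's counts and 9790 to 13569 TPM. The highest was Ctsa, which encodes cathepsin A, a carboxypeptidase that also shields neuraminidase 1 and β-galactosidase from breakdown, with a mean of 1499 TPM ± 224 (SD, n = 12). Ctsd, the aspartic protease cathepsin D, followed with 1389 TPM ± 347, and Lamp1, the major glycoprotein that lines the lysosome membrane, with 1099.6 TPM ± 179. Psap, whose product is cut into the saposins that help glycosphingolipid hydrolases, had 893 TPM ± 199, and Grn, which encodes progranulin, a secreted protein delivered to the lysosome, 863 TPM ± 275. Neighbours in this order overlapped in their ranges over the 12 libraries. The values add all transcripts of a gene, and those annotated as retaining an intron held 17.5% to 38.5% for Ctsa and 0.417% to 1.27% for Ctsd. The order thus need not hold for coding transcripts. At the other end were Tfeb with 17.8 TPM ± 3.93, Smpd1, the acid sphingomyelinase, with 15.7 ± 1.29, Sgsh, the sulfamidase of heparan sulfate breakdown, with 14.4 ± 5.75, and Mitf with 13.7 ± 1.5. Of the 3 regulators, Tfe3 was the most abundant at 44.2 TPM ± 4.05, and its lowest library (39 TPM) lay above the highest of Tfeb (25.4 TPM) and Mitf (15.5 TPM).

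**Figure D1:**
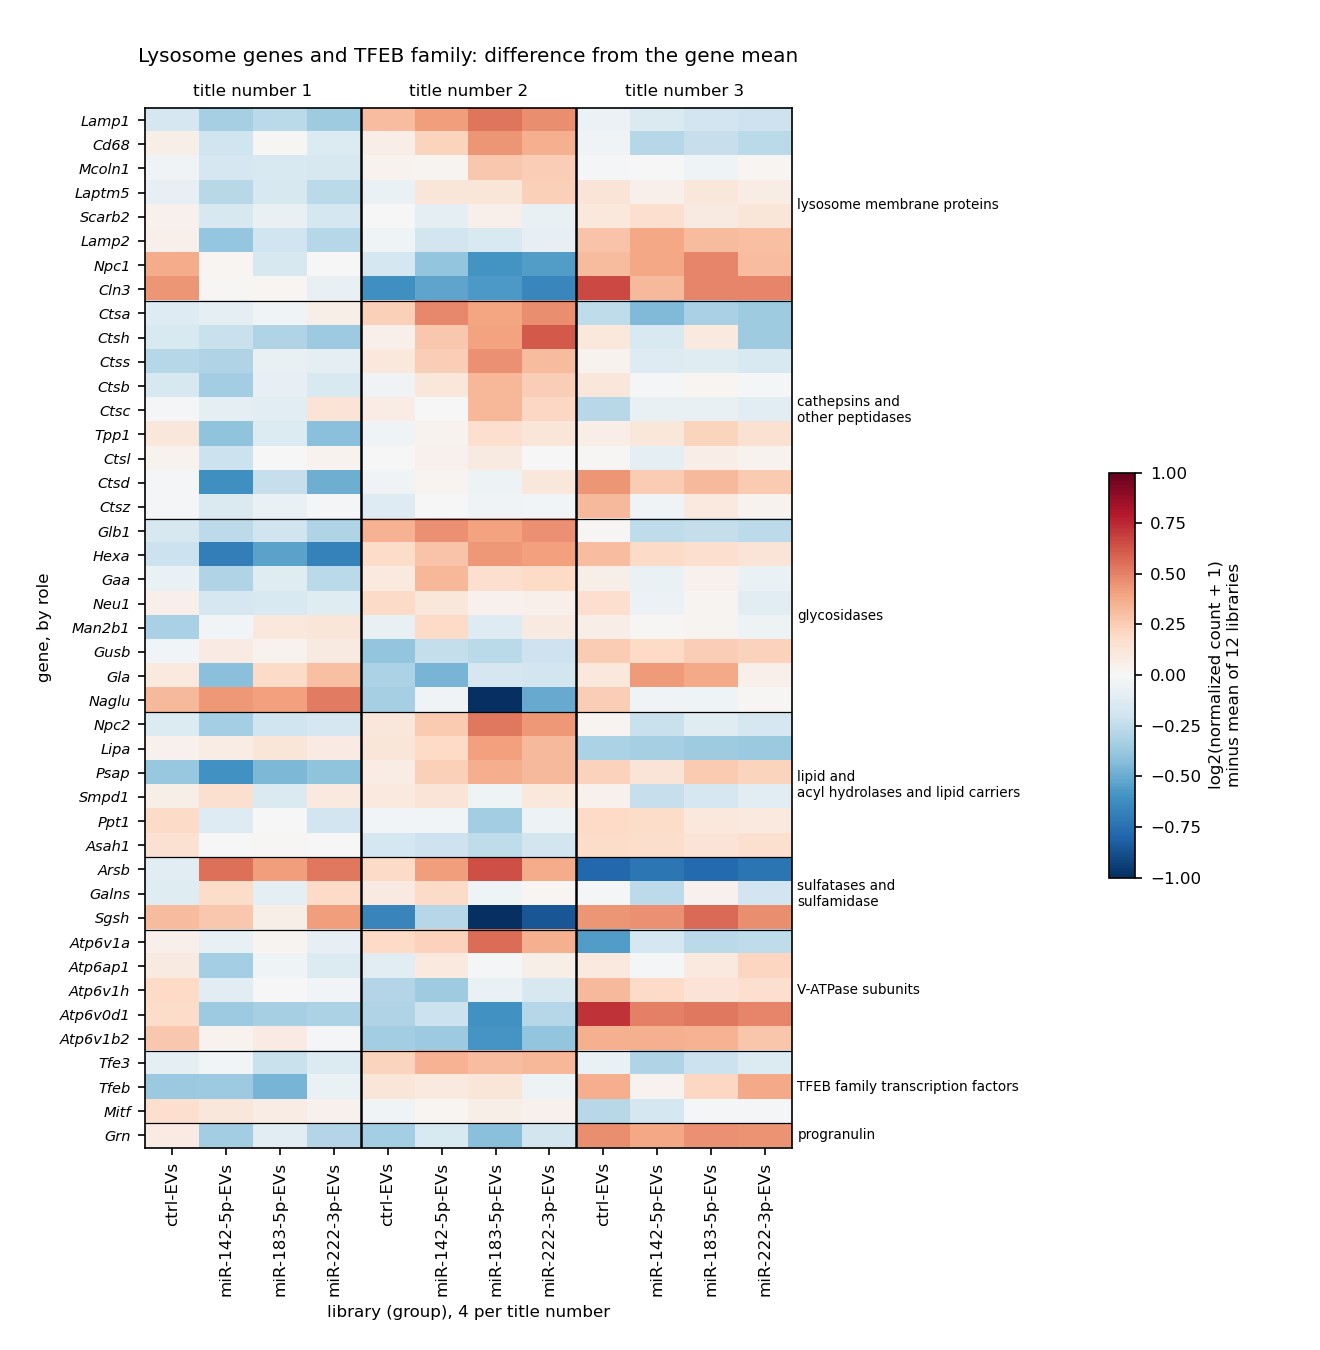
Each row is 1 of the 43 genes and each column 1 of the 12 libraries, grouped by title number. The colour is log2(normalized count + 1) minus the mean of the gene over the 12 libraries, with the scale ending at −1 and 1. Columns of the same number resemble each other more than columns of the same group, as with Arsb, which is low in all 4 libraries of number 3.

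The first question was whether EVs carrying a miRNA mimic changed lysosome gene expression. Without regard to the numbers in the titles, none of the 43 members did so past the threshold. DESeq2 called 0 members (Wald test, Benjamini-Hochberg adjusted p under 0.05 over all tested genes) in each comparison of a miRNA with ctrl-EVs. Of all tested genes 0.00719% were called for miR-142-5p, 0.0% for miR-183-5p and 0.0% for miR-222-3p. The unadjusted p was under 0.05 for 0 members in each of these comparisons, against 73, 138 and 101 of the 13906 tested genes, and edgeR also called 0 members. The 9 miR-EV libraries together against the 3 ctrl-EV libraries gave 0 called members, with 0.0% of all genes called. Here 1 member had an unadjusted p under 0.05, against 231 of the tested genes. The test for a difference between any of the 4 groups called 0 members and 0.00719% of all genes. All 3 comparisons share the same ctrl-EV libraries.

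The median log2 fold change of the members was −0.06 for miR-142-5p, −0.02 for miR-183-5p and 0.01 for miR-222-3p, where the median over all tested genes was 0.01 in each. Single members ranged from −0.28 to 0.36, from −0.31 to 0.39 and from −0.26 to 0.33. A fold change of that size was within the spread between libraries: for Arsb, at the upper end in each comparison, the standard error was 0.47.

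Libraries of the same number deviated together, so the fits were repeated with the number as a block. With the block, 0.0575%, 0.41% and 0.0647% of all genes were called in the comparisons of miR-142-5p, then miR-183-5p, then miR-222-3p, and 0 members in each (0 called by edgeR with the block). The unadjusted p was under 0.05 for 4, 4 and 5 members, against 815, 1409 and 908 of the 13906 tested genes. In the miR-222-3p comparison DESeq2 gave no adjusted p for Ctsh, Smpd1 and Tfeb. For all miR-EVs together 1.6% of all genes were called, and 1 of 43 members.

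That member was Neu1, which encodes neuraminidase 1, the lysosomal sialidase. Its normalized counts in ctrl-EVs were 2267, 2496 and 2458 in numbers 1, 2 and 3. They were 1947, 2366 and 2100.5 for miR-142-5p, 1970.4, 2252 and 2231 for miR-183-5p, and 2011, 2264 and 2021 for miR-222-3p. Each of the 9 miR-EV libraries lay below the ctrl-EV library of its number, while the groups overlapped when numbers were ignored. The log2 fold change of all miR-EVs against ctrl-EVs was −0.18 (SE 0.08, DESeq2 adjusted p = 0.9998) without the block and −0.18 (SE 0.05, DESeq2 adjusted p = 0.0436) with it. The call was lost in the 3 other fits of all 12 libraries with the block. The adjusted p was 0.200 in edgeR and 0.137 in DESeq2 with a GC correction, and without the length offset the log2 fold change was −0.09 (DESeq2 adjusted p = 0.450). When libraries were left out of that fit in turn, Neu1 remained called without the ctrl-EV or the miR-142-5p-EV library of number 2 and was lost without any 1 of the other 10, where the adjusted p was between 0.0631 and 0.137.

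Arsb, the arylsulfatase B that removes sulfate from dermatan and chondroitin sulfate, moved the other way and just missed the threshold. In ctrl-EVs it had 1760.4, 2166 and 1101 normalized counts in numbers 1, 2 and 3, and in the 9 miR-EV libraries 2534 to 2784, 2457 to 2957 and 1103 to 1147. The miR-EV libraries were thus clearly higher in numbers 1 and 2, and in number 3 they differed from the control by at most 0.06 on the log2 scale. With the block the log2 fold change of all miR-EVs was 0.31 (SE 0.10, DESeq2 adjusted p = 0.0532), and it was called when the length offset was dropped (adjusted p = 0.0318) or a GC correction was added (adjusted p = 0.0334). Within single comparisons Arsb had the lowest p of the members with miR-142-5p-EVs (log2 fold change 0.31, SE 0.13, DESeq2 adjusted p = 0.719 with the block).

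Atp6v0d1, the subunit that couples the rotor of the proton pump to its membrane ring, had the lowest p with miR-183-5p-EVs. In ctrl-EVs it had 2898, 2073 and 4215 normalized counts, and with miR-183-5p-EVs 2033, 1679 and 3676 in the libraries of the same numbers. The log2 fold change with the block was −0.34 (SE 0.12, DESeq2 adjusted p = 0.167). In the other groups the number 2 library lay above its control (2201 for miR-142-5p and 2094 for miR-222-3p), so the direction held in 7 of 9 libraries. With miR-222-3p-EVs the lowest p belonged again to Neu1 (−0.20, SE 0.08, DESeq2 adjusted p = 0.443 with the block).

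**Figure D2:**
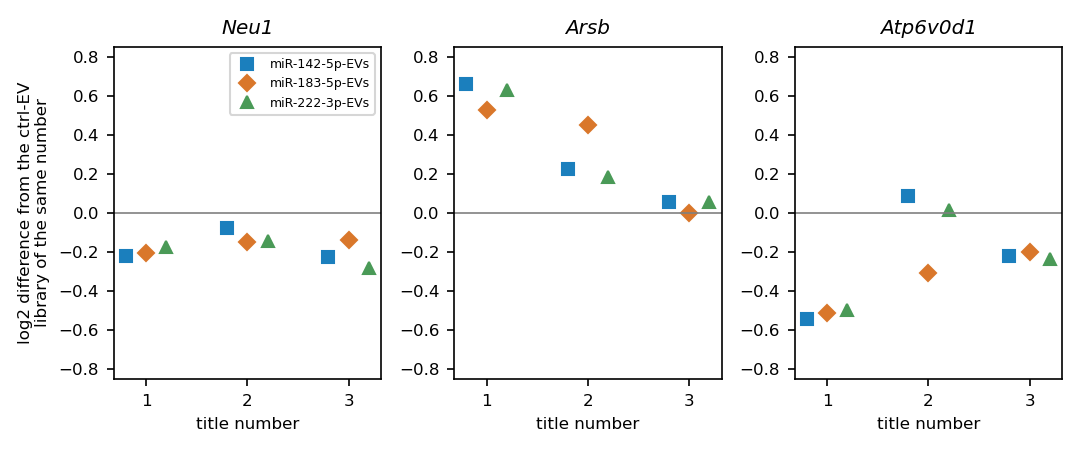
The vertical axis is the log2 difference between a miR-EV library and the ctrl-EV library of the same title number, 1 point per library, for Neu1, Arsb and Atp6v0d1. The 9 points of Neu1 lie below 0 and those of Arsb lie at or above it, far above in number 1 and near 0 in number 3.

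Counting directions within numbers gave the same picture. With miR-142-5p-EVs 1 member (2.33%) was higher than the control of its number in 3 of 3 numbers and 4 (9.30%) were lower, where 13.0% and 12.4% of all tested genes were. With miR-183-5p-EVs the members were 2 higher (4.65%, background 13.6%) and 8 lower (18.6%, background 15.3%). For miR-222-3p they were 3 higher (6.98%, background 12.6%) and 6 lower (14.0%, background 12.6%). In all 9 miR-EV libraries together 1 member was higher (2.33%, background 3.67%), namely Arsb, and 3 were lower (6.98%, background 3.85%), namely Asah1, Atp6v1b2 and Neu1. For Asah1, the acid ceramidase, and Atp6v1b2, a subunit of the catalytic head of the pump, several of these differences were under 0.01 on the log2 scale. These counts depended on the scale, since on the deposited TPM 4, 7 and 8 members were higher in 3 of 3 and 1, 4 and 2 were lower, with the miRNAs in the same order. No share of all tested genes is given on that scale, so these counts say nothing particular to the members. On log2(TPM + 1) the mean of all tested genes was itself above ctrl-EVs in number 3, by 0.141, 0.150 and 0.154.

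The members with a seed site did not stand out. In the miR-142-5p-EV comparison Npc1 was at −0.15, Ppt1 at −0.11, Npc2 at −0.08, Mcoln1 at −0.04 and Mitf at 0.03 (log2 fold change without the block), all within the range of the other members and none called. The 4 with a miR-183-5p site lay between −0.03 and 0.11 with miR-183-5p-EVs. The 4 with a miR-222-3p site were between −0.14 and 0.06 with miR-222-3p-EVs.

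Nor did the regulators differ between the groups beyond the spread of their libraries. Tfeb had 391 ± 96.2 normalized counts (SD, n = 3) in ctrl-EVs. It had 356 ± 58.7 for miR-142-5p, 369 ± 87.1 for miR-183-5p and 399.6 ± 72.6 for miR-222-3p. Tfe3 had 1667 ± 209, 1671 ± 381, 1615 ± 359.6 and 1679 ± 333 in the same order. Mitf had 702 ± 107, 717 ± 73.5, 742 ± 23.5 and 732 ± 17.2. For all miR-EVs against ctrl-EVs the log2 fold changes were −0.06 (SE 0.20) for Tfeb, −0.01 (SE 0.18) for Tfe3 and 0.06 (SE 0.10) for Mitf, with signs that turned under several settings and none called with or without the block.

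**Figure D3:**
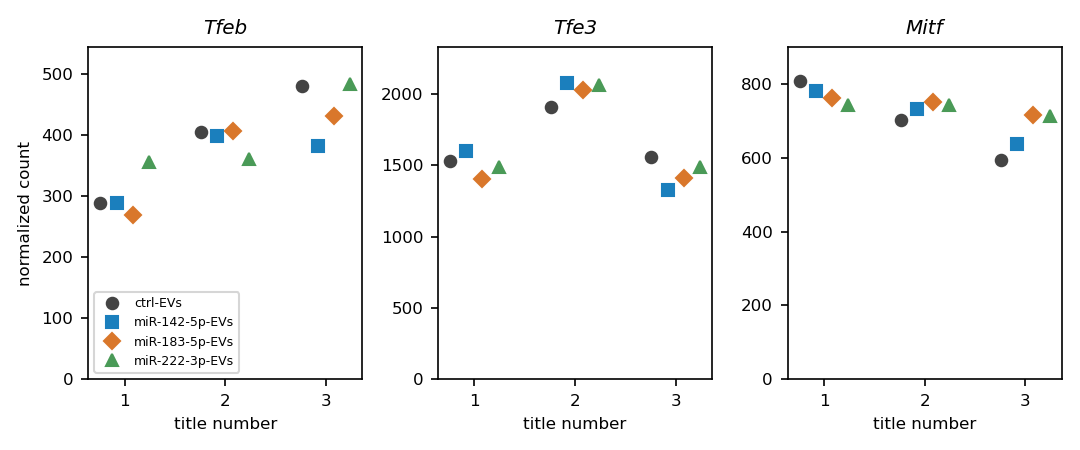
Normalized counts of Tfeb, Tfe3 and Mitf are plotted by title number, with 1 point per library and a marker for each group, on axes that start at 0. Tfe3 is higher in the 4 libraries of number 2 (1908 to 2082) than in the other 8 (1328 to 1604), and Tfeb is lower in number 1 (269 to 355) than in number 3 (381 to 483).

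Expression of the members varied far more between title numbers than between groups. Since each number holds 1 library of every group, the second question was which lysosome genes differed by number with the group held fixed. A likelihood ratio test for any difference among the 3 numbers called 36 of 43 members (83.7%), against 69.4% of all tested genes. The 7 others were Ctsl, Ctsz, Man2b1, Smpd1, Galns, Atp6ap1 and Mitf. Of the contrasts, number 2 against the mean of numbers 1 and 3 called 31 of 43 members, and 8914 of the 13906 tested genes. Number 1 against number 3 called 20 members and 3253 of these genes. Both contrasts called 16 of the members, and genes called in both were not counted over all tested genes, so this says nothing particular to the members. Levels also moved with number in other genes, with macrophage markers summing to 2373 to 2764 TPM in number 1, 1996 to 2210 in number 2 and 3315 to 3388 in number 3. Mitochondrial share and transcript length, given above, moved with number as well, and their part in the results that follow was not tested.

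In number 2, 19 members were higher (44.2%, against 32.0% of all tested genes) and 12 lower (27.9%, against 32.1%). The median log2 fold change of the members was 0.11, where that of all genes was 0.01. All 4 libraries of number 2 lay above the other 8 for 10 members (23.3%, background 20.2%) and below them for 6 (14.0%, background 21.0%). The shares of members lay above those of all genes for rises and below them for falls, some of them close, and no difference was tested. On log2(TPM + 1) the member score was −0.177 to −0.087 in number 2, where that of all tested genes was −0.186 to −0.074. The counts by role that follow stand against the same shares of all tested genes, 32.0% and 32.1%, and no role was tested as a set.

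Among membrane proteins 4 rose and 3 fell, of 8. Lamp1 had the largest rise of all members: 25555 to 29076 normalized counts in number 1, 40364 in ctrl-EVs and 43647 to 47254 in the miR-EV groups in number 2, and 28277 to 31375 in number 3. No library of number 2 overlapped the others, and the log2 fold change was 0.65 (SE 0.07, DESeq2 adjusted p = 4.2e-21). Cd68, a macrophage scavenger receptor of late endosomes and lysosomes, rose by 0.41, Mcoln1, the calcium channel of the lysosome membrane, by 0.22 and Laptm5 by 0.16, the last with overlap between numbers 2 and 3. Cln3, the membrane protein mutated in juvenile Batten disease, had 1564 to 2229 counts in number 1, 1046 to 1143 in number 2 and 2064 to 2599.7 in number 3. Its 4 libraries of number 2 lay below the other 8, and it fell by 0.89 (SE 0.09, DESeq2 adjusted p = 3.7e-23). Npc1, which passes cholesterol out of the lysosome, had 2062 to 2990.3 counts in number 1, 1529.5 to 2039.8 in number 2 and 2861 to 3240.0 in number 3. It fell by 0.65 (SE 0.09, DESeq2 adjusted p = 7.1e-12), with the highest library of number 2 only just below the lowest of number 1. Lamp2 fell by 0.18, with overlap. Scarb2, the receptor that carries β-glucocerebrosidase to the lysosome, was not called.

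Of 9 cathepsins and other peptidases, 5 rose and 0 fell, where 32.0% of all tested genes rose and 32.1% fell. Ctsa had 27059.8 to 30741 counts in number 1, 34857 to 41148 in number 2 and 21736 to 24777 in number 3, so that the 3 numbers did not overlap. Its log2 fold change in number 2 was 0.59 (SE 0.07, DESeq2 adjusted p = 3.7e-17). Ctsh, an aminopeptidase, rose by 0.51, Ctss, which trims the invariant chain of MHC class II, by 0.42, Ctsb by 0.25 and Ctsc, the activator of granule serine proteases, by 0.23. Number 2 overlapped number 3 for Ctsh and Ctsb and number 1 for Ctsc, and stood clear of both for Ctss. Ctsd, Ctsl, Ctsz and Tpp1 were not called, with fold changes of 0.02, 0.05, −0.07 and 0.11.

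The glycosidases split, with 4 higher and 3 lower of 8. Glb1, the β-galactosidase, had 1854 to 2044 counts in number 1, 2897 to 3122 in number 2 and 1897 to 2301 in number 3, with no overlap, and rose by 0.62 on the log2 scale (SE 0.07, DESeq2 adjusted p = 7.7e-17). Hexa, the α subunit of β-hexosaminidase, rose by 0.50, Gaa, which degrades glycogen, by 0.30 and Neu1 by 0.14. Of these only Gaa had no overlap, and Hexa in number 2 (11224 to 13347 counts) overlapped number 3 (10796 to 12219) and lay above number 1 (6116 to 8527). Gusb, the β-glucuronidase, had 6408 to 6942 counts in number 1, 4969 to 5658 in number 2 and 7489.6 to 7793 in number 3, and fell by 0.42 (SE 0.06, DESeq2 adjusted p = 1.6e-12). Naglu and Gla, the α-N-acetylglucosaminidase and the α-galactosidase A, fell by 0.69 and 0.44, each with overlap between libraries.

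Of the 3 sulfatases and sulfamidase, 1 rose and 1 fell. Sgsh had the largest fall of all members, with 786 to 1009 counts in number 1, 477 in ctrl-EVs and 328 to 619.8 in the miR-EV groups in number 2, and 1025 to 1118 in number 3. No library of number 2 reached the others, and it fell by 1.11 on the log2 scale (SE 0.12, DESeq2 adjusted p = 2.4e-18). Arsb rose by 0.61, with 2166 to 2957 counts in number 2 that overlapped number 1 and lay above number 3. Galns, which acts on keratan and chondroitin sulfate, was not called (0.09).

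Of 6 lipid carriers and hydrolases, 3 rose and 1 fell. Npc2, which hands cholesterol to Npc1, had 3668 to 4220.4 counts in number 1, 5030.3 to 6718 in number 2 and 3986 to 4734 in number 3, and rose by 0.50 (SE 0.08, DESeq2 adjusted p = 3.4e-09). Npc2 and Npc1, which act in sequence, thus differed in opposite directions, each without overlap. Lipa, the acid lipase, rose by 0.40 and Psap by 0.38, while Asah1 fell by 0.31 without overlap. Lipa in number 2 overlapped number 1. Psap in number 2 (33118 to 40445 counts) spanned all of number 3 (34385 to 37609), so that its rise was against number 1 (20680.3 to 24174). Smpd1 and Ppt1 were not called.

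Subunits of the proton pump did not move as one. Atp6v1a, the catalytic A subunit, had 11048 to 12173 counts in number 1, 13485 to 17246 in number 2 and 7943 to 10377 in number 3, and rose by 0.50 (SE 0.08, DESeq2 adjusted p = 3.9e-09). Atp6v1b2, its partner in the catalytic head, had 3098 to 3767 counts in number 1, 2078 to 2454 in number 2 and 3790.1 to 3988 in number 3, and fell by 0.64 (SE 0.07, DESeq2 adjusted p = 7.1e-19). Atp6v0d1 fell by 0.53 and Atp6v1h by 0.33, both with overlap, and the accessory subunit Atp6ap1 was not called (0.01). Grn fell by 0.41 (SE 0.09, DESeq2 adjusted p = 7.9e-06), with 17488 to 21029 counts in number 2 that overlapped number 1 and lay below number 3.

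Of the regulators, Tfe3 alone was called. It had 1406 to 1604 counts in number 1, 1908 to 2082 in number 2 and 1328 to 1562 in number 3, with no overlap, and rose by 0.45 (SE 0.07, DESeq2 adjusted p = 3.6e-09). Tfeb was at 0.11 (SE 0.11, DESeq2 adjusted p = 0.394) and Mitf at 0.03 (SE 0.08, DESeq2 adjusted p = 0.770), and both turned sign without the length offset. Members with GTCACGTG in the promoter window were 4 of the 17 that rose (23.5%), 5 of the 8 that fell (62.5%) and 1 of the 11 not called (9.09%), counted over members with a window. For CACGTG these shares were 35.3%, 62.5% and 18.2%, and for TCACGTGA 17.6%, 37.5% and 9.09%. Each share was highest among members that fell, with few members in each class and no test of the difference. The share among all tested genes that rose or fell was not counted.

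**Figure D4:**
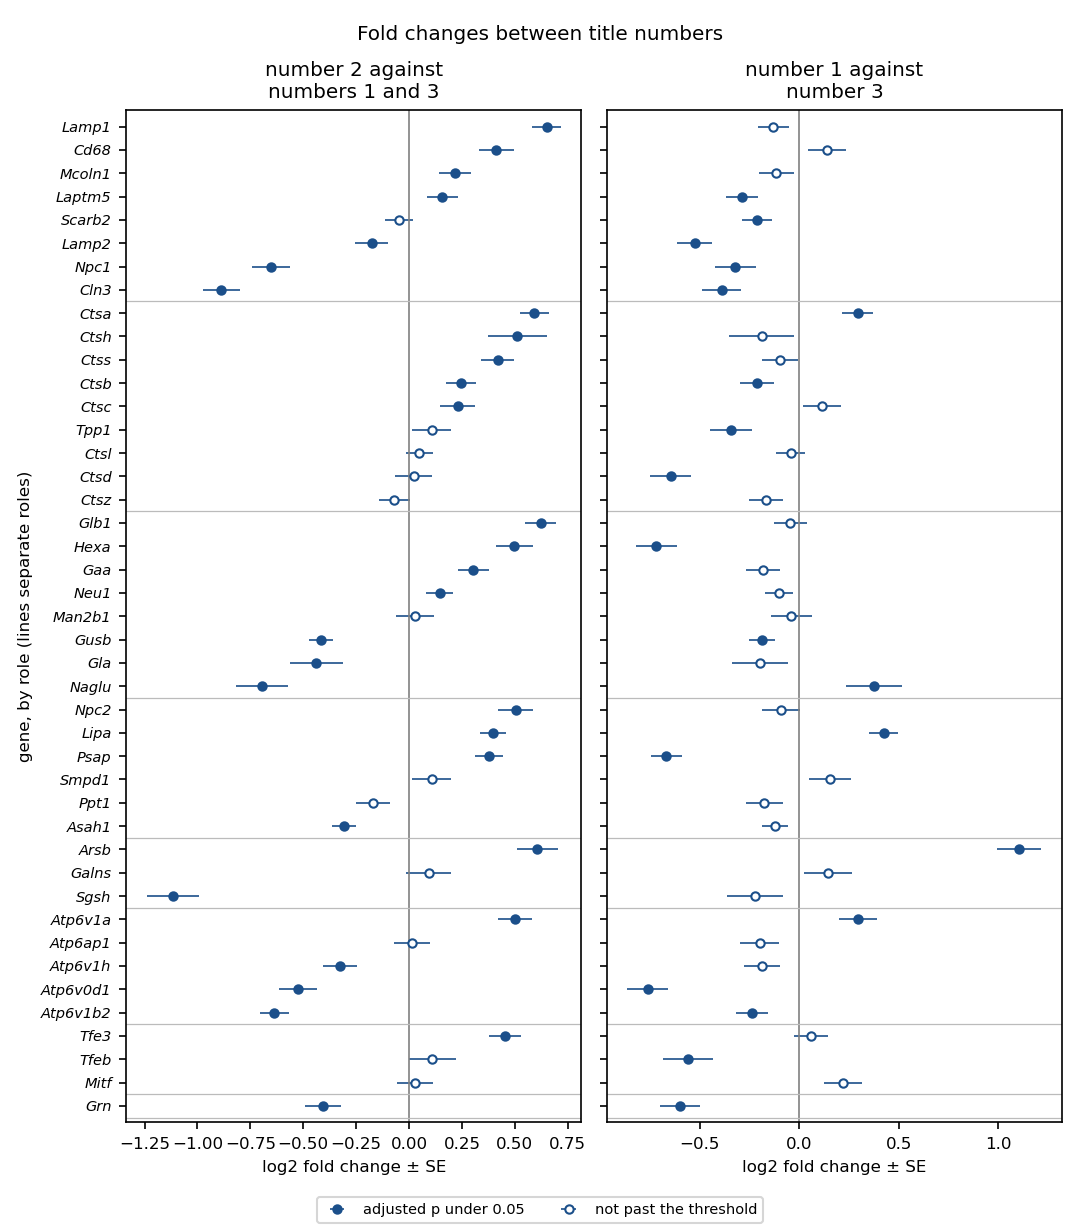
Each point is the log2 fold change of 1 member with its standard error, for number 2 against the mean of numbers 1 and 3 (left) and number 1 against number 3 (right). Filled points passed an adjusted p of 0.05, and lines separate roles. In number 2 the called cathepsins all lie above 0, from 0.23 for Ctsc to 0.59 for Ctsa, while called membrane proteins and glycosidases lie on both sides.

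Between numbers 1 and 3 the members leaned one way. In number 1, 5 were higher (11.6%, against 12.9% of all tested genes) and 15 lower (34.9%, against 10.5%), with a median log2 fold change of −0.18 where all genes had −0.01. The 4 libraries of number 1 lay above those of number 3 for 6 members (14.0%, background 13.2%) and below them for 14 (32.6%, background 12.0%). Leaving out 1 library changed the count of called members from 20 to between 13 and 21, and it was 13 without the miR-222-3p-EV library of number 1 or that of number 3. The median moved to −0.12 without the miR-142-5p-EV library of number 1. Expressed as TPM the members summed to 9790 to 11171 in number 1 and 12571 to 13569 in number 3, a sum in which abundant members weigh most. On log2(TPM + 1) the member score averaged −0.045 in number 1 and 0.167 in number 3, and that of all tested genes 0.037 and 0.092.

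The 3 largest falls without overlap between libraries were in 3 roles. Atp6v0d1 had 2898 counts in ctrl-EVs and 1988 to 2055 in the miR-EV groups in number 1, and 4215 and 3577 to 3676 in number 3, a difference of −0.76 (SE 0.10, DESeq2 adjusted p = 1.1e-11). Hexa had 6116 to 8527 counts in number 1 and 10796 to 12219 in number 3 (−0.72, SE 0.10, DESeq2 adjusted p = 1.3e-10). Psap had 20680.3 to 24174 and 34385 to 37609 (−0.67, SE 0.08, DESeq2 adjusted p = 4.0e-16). The abundant Ctsd (25074 to 37944 against 45652 to 51998 counts) and Grn (18299 to 24746 against 30509 to 32296) were lower as well, by 0.65 and 0.60. In Ctsd, Hexa and Atp6v0d1 the ctrl-EV library was the highest of number 1, so that the contrast was wider among the miR-EV libraries. Tfeb was the one regulator called, lower in number 1 by 0.56 (SE 0.13, DESeq2 adjusted p = 1.1e-04) with 269 to 355 counts against 381 to 483, while Tfe3 was at 0.06 and Mitf at 0.22 (DESeq2 adjusted p = 0.685 and 0.0803).

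The 3 largest rises in number 1 without overlap were those of Arsb, Lipa and Naglu. Arsb had 1760.4 to 2784 counts in number 1 and 1101 to 1147 in number 3, and with 2166 to 2957 in number 2 it had the widest difference between numbers 1 and 3, 1.11 on the log2 scale (SE 0.11, DESeq2 adjusted p = 3.2e-21). Lipa had 9175 to 9683 counts against 6876 to 7138 (0.42, SE 0.07, DESeq2 adjusted p = 1.7e-07). Naglu had 1156 to 1323 against 896 to 1096 (0.38, SE 0.14, DESeq2 adjusted p = 0.0358), a call that edgeR and 4 of the fits without 1 library did not keep.

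A score for each library, the mean over the 43 members of log2(normalized count + 1) minus the mean of the gene over the 12 libraries, summarised these directions. In ctrl-EVs it was 0.008, −0.038 and 0.107 in numbers 1, 2 and 3. It was −0.153, 0.047 and 0.016 for miR-142-5p, −0.083, 0.025 and 0.067 for miR-183-5p, and −0.083, 0.058 and 0.028 for miR-222-3p. The 3 miR-EV libraries thus lay below ctrl-EVs in numbers 1 and 3 and above it in number 2. On log2(TPM + 1) this direction turned in number 3, where the 3 miR-EV libraries lay above ctrl-EVs by 0.073, 0.137 and 0.103. In number 2 it was mixed (0.033, −0.057 and 0.016). All tested genes also shifted on that scale, by 0.141, 0.150 and 0.154 in number 3 and by −0.040, −0.112 and −0.066 in number 2. In each group the member value was thus below that of all genes in number 3 and above it in number 2. The member score on log2(TPM + 1) was −0.177 to −0.087 in number 2 and 0.089 to 0.226 in number 3. Number 2 so turned from above to below the mean of the others, and all tested genes were shifted in number 2 on that scale, as given above. Roles differed: V-ATPase subunits scored 0.166 to 0.187 in number 3 and −0.169 to −0.086 in number 2, while the TFEB family scored −0.203 to −0.055 in number 1 and 0.102 to 0.163 in number 2.

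**Figure D5:**
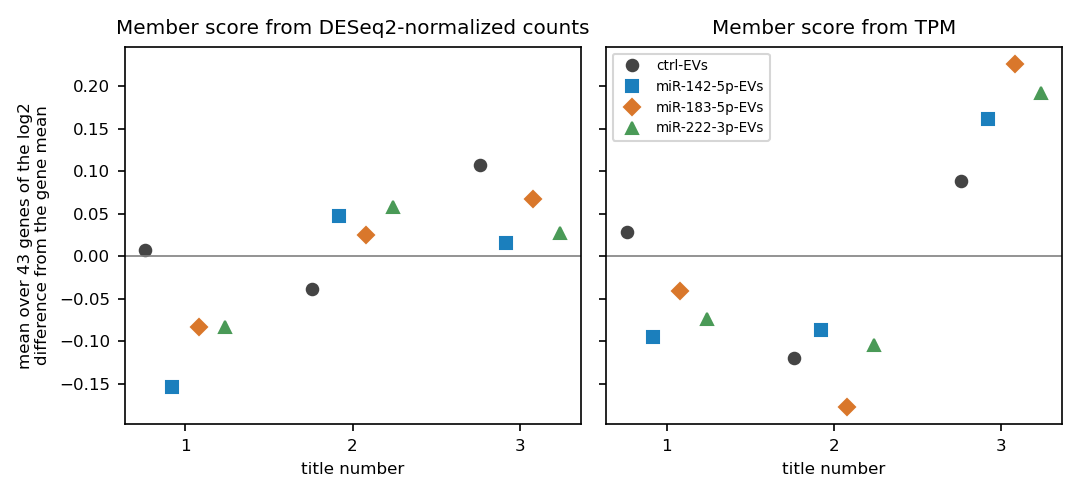
The mean over the 43 genes of the log2 difference from the gene mean is plotted for each library by title number, from DESeq2-normalized counts on the left and from TPM on the right. On the left number 1 holds the 3 lowest libraries, and on the right number 3 holds the 4 highest, from 0.089 to 0.226.

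Transcript-level estimates were given for Lamp2 and Mitf, which have several coding forms. For Lamp2 the shorter transcript Lamp2-201 held 47.5% to 56.6% of its TPM in number 1, 51.8% to 60.4% in number 2 and 61.6% to 64.2% in number 3, and Lamp2-202, with another end, held nearly all the rest. The 4 libraries of number 3 lay above the other 8 for Lamp2-201, by a margin smaller than the spread within numbers 1 and 2. For Mitf, Mitf-202 held 68.1% to 71.5%, 60.5% to 68.5% and 60.2% to 76.1%, so that the numbers overlapped, and Mitf-208 held 12.1% to 37.1% over all libraries. These shares are estimates of how reads shared by transcripts divide.

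Transcripts that the annotation describes as retaining an intron took a larger share in number 2. Over 7356 tested coding genes with such a transcript, they held 13.9% to 15.5% of summed TPM in number 2, against 10.4% to 11.4% in number 1 and 9.92% to 11.1% in number 3. Of 29 members with such a transcript, 13 (44.8%) had a higher share in all 4 libraries of number 2 than in the other 8, against 31.3% of all these genes, and 0 had a lower share in all 4 (background 0.761%). For Tfe3 the share was 17.4% to 26.1% in number 2 against 7.82% to 9.69% elsewhere, and for Tfeb 5.22% to 28.2% against 0% to 3.26%. For Cln3 it was 27.1% to 35.6% against 12.7% to 24.7%, and for Ctsa 30.8% to 38.5% against 17.5% to 22.9%. For Mcoln1 such transcripts held 57.6% to 67% in number 2, most of its TPM, against 33.9% to 49.6% elsewhere. The gene counts above add these transcripts to the coding ones, so the rises of Tfe3, Ctsa and Mcoln1 in number 2 include them. By TPM, the gene sum of Mcoln1 was 63.0 to 71.6 in number 2 and 61.1 to 77.2 elsewhere. With the shares above, its other transcripts were lower in number 2 than in the other 8 libraries on that scale. For Tfe3 and Ctsa the other transcripts in number 2 overlapped those of the other 8. All tested genes were also shifted in number 2 on the log2(TPM + 1) scale. A rise of the gene sum was thus not shown to be one of the coding transcripts, and the part of intron-retaining ones was not tested.

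Some members overlap another tested gene in genome position, counted from gene start to gene end with introns included. Lamp1, Ctsa, Ctsb, Ctsz, Hexa, Npc1, Sgsh, Cln3, Atp6v1b2, Atp6v1h, Galns and Ppt1 overlap one on the other strand, and Ctsd and Glb1 overlap one on their own strand. The partners had a mean of 0.408 to 43.1 TPM except Cap1, the partner of Ppt1, at 275 TPM. Shared exon sequence was not searched for, and the sources used here do not say whether Salmon used strand. Whether reads in the overlaps were assigned to the right gene is thus not known.

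Further genes of the pathway, from lists beside the 43, were tested in the same fits. In the 4 comparisons with ctrl-EVs, DESeq2 without the block called 0 genes of the 5 lists (1 gene with an unadjusted p under 0.05, a V-ATPase subunit, with all miR-EVs). With the block and all miR-EVs DESeq2 called 3, where it called 1.6% of all tested genes and edgeR with the block called 0, namely Dpp7 (lower) and Gnptab and Atg16l1 (higher). Of 14 further V-ATPase subunits, 2 rose and 8 fell in number 2 (14.3% and 57.1%, against 32.0% and 32.1% of all tested genes). In number 1 against number 3, 0 rose and 8 fell (0.0% and 57.1%, against 12.9% and 10.5%). Atp6v0e rose in number 2 by 0.42 and Atp6v1c1, a stator subunit, fell by 0.88. Of 28 further hydrolases and cofactors 7 rose and 9 fell in number 2 (25.0% and 32.1%), from Gm2a, the GM2 ganglioside activator that works with Hexa (1.54), to Dpp7, a dipeptidase (−1.31). Of 18 further membrane proteins and sorting receptors 5 rose and 5 fell (27.8% each). These included both genes of the enzyme that tags hydrolases with mannose 6-phosphate: Gnptab, its catalytic precursor, rose by 0.97 and Gnptg, its γ subunit, fell by 1.92, to 90.4 to 133 counts from 327 to 557 elsewhere.

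Genes that control the TFEB family through mTORC1 and nutrient sensing gave 6 rises and 9 falls of 25 in number 2 (24.0% and 36.0%, near the background of 32.0% and 32.1%). Tsc1, a brake on mTORC1, had the largest rise (0.89) and Depdc5, of the GATOR1 complex, the largest fall (−1.14). In number 1 against number 3 there were 0 rises and 3 falls in this list (0.0% and 12.0%). Of 29 autophagy genes, which the TFEB family also regulates, 13 rose and 9 fell in number 2 (44.8% and 31.0%). Ulk1, the kinase that starts autophagy, rose by 1.43, with 1147 to 2226 counts in number 2 and 492 to 599.7 elsewhere. Sqstm1, the cargo receptor p62, fell by 1.37, with 12598 to 14744 counts in number 2 against 22214 to 48428.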

How the data were processed

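RNA-Seq was done on 12 libraries of RAW264.7 cells (TruSeq Stranded mRNA kit, 4 groups of 3). The authors quantified reads with Salmon and deposited estimated counts and TPM for each transcript of each library. The labels, the study's methods and the deposited table differ on genome build and Ensembl release. Of 118783 transcripts, 116622 (98.2%) matched GENCODE vM21 (GRCm38). The strand setting used with Salmon is not given in the sources used here. Columns of no sample in this series numbered 0.

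The estimated counts of a gene's transcripts were added and rounded, and mean transcript length was used as an offset. Genes that reached 10 counts in 3 or more libraries were tested with DESeq2 1.42.0 (R 4.3.3; two-sided Wald or likelihood ratio test, adjusted p under 0.05 over the tested genes) in 1 model of the 12 libraries. Summing to genes and DESeq2 follow the study, while the filter, the models and the threshold were chosen here. DESeq2's filtering by mean count left some genes without an adjusted p (in the fits with the block 6357 to 13906 genes had one, and 9861 for all miR-EVs), and the others were not counted as called. Contrasts of title numbers kept group as a term. edgeR 4.0.16, no length offset, no filter, a GC correction, only the groups compared, no group term, the number as a block and leaving out each library were alternatives. Leaving out libraries within the block, and dropping the offset within it, were chosen after seeing the data. Same-numbered libraries deviated together, with a mean correlation across genes of 0.608 (0.409 to 0.797, 18 pairs) against −0.286 for other pairs, so numbers were taken to pair libraries. This pairing comes from the data, since the labels do not say what a number is. The code was tested on simulated data.

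The members and lists were chosen with earlier results of these data known. Members described per library were the regulators, those called or of lowest p with the block in each treatment comparison, the 5 largest rises and falls in number 2 and the 3 largest in number 1 against 3 that were called without overlap, and the 5 of highest mean TPM. Others are given by their values in short. Totals were 16294611 to 22974853 counts, so the floor of 3 counts is 0.131 to 0.184 CPM, and it covers counting error only.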

Additional observations from a re-analysis of the deposited data

Results flagged for a closer look

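In sets of 4 libraries of 1 title number, which mix the groups, 5 of 69 sets had a library far from the other 3, where chance gives about 1 in 20. The gap to the nearest library was divided by the whole range. Atp6v0d1 was highest in the ctrl-EV library of number 1 (0.927) and in that of number 3 (0.846). Glb1 was highest in the ctrl-EV library of number 3 (0.901) and Cln3 in that of number 1 (0.841). Atp6v1b2 was lowest in the miR-222-3p-EV library of number 3 (0.900).

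For several members the 3 miR-EV libraries lay above the ctrl-EV library in 1 number and below it in another. These differences were not tested, and each number has a single ctrl-EV library, which all 3 miR-EV libraries are set against. The values are differences between numbers of the mean log2 difference from ctrl-EVs. The miR-EV libraries were above the control in number 2 and below it in numbers 1 and 3 for Lamp1 (0.320), Glb1 (0.186), Npc2 (0.389), Hexa (0.613) and the score of the 43 members (0.195), each as number 2 minus number 1. For the score this holds on normalized counts and not on log2(TPM + 1), where the 3 libraries lay above the control in number 3 and to both sides of it in number 2. On that scale the mean of all tested genes also lay above the control in number 3, and below it in number 2. They were above in number 2 and below in number 1 for Psap (0.341), and above in numbers 2 and 3 and below in number 1 for Mitf (0.161) and Atp6v1a (0.277). Above in numbers 1 and 2 and below in number 3 were Ctsa (0.223), Gusb (0.126) and Lipa (0.0823), each as number 1 minus number 3. Naglu was above in number 1 and below in number 3 (0.399), and Tfe3 above in number 2 and below in number 3 (0.261).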

How the results depend on the processing

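With the replicate block the genes called of all tested rose from 1 to 8 with miR-142-5p-EVs, from 0 to 57 with miR-183-5p-EVs, from 0 to 9 with miR-222-3p-EVs, from 0 to 223 with all miR-EVs and from 1 to 12 for any of the 4 groups. In the same order of the first 4 comparisons, the block without the length offset called 4, 32, 6 and 153, and the block with a GC correction 13, 81, 15 and 273. edgeR called 0 genes in each of these 4 comparisons, with and without the block, and with miR-142-5p-EVs 0 were called with only the groups compared. Leaving out 1 library without the block gave 0 to 1 genes with miR-142-5p-EVs, 0 to 1 with miR-183-5p-EVs and 0 to 3 with all miR-EVs. Leaving out 1 library with the block gave 4 to 63 genes for miR-142-5p, 6 to 209 for miR-183-5p, 2 to 93 for miR-222-3p and 90 to 481 for all miR-EVs. The highest of these came without the ctrl-EV library of number 2 for miR-142-5p, of number 1 for miR-183-5p and of number 3 for the other 2. Of the members, 1 was called with all miR-EVs under the block, 1 under the block without the offset and 1 under the block with a GC correction, against 0 without the block. The member was Neu1 in the first and Arsb in the others. The block changed no other call of a member. Leaving out 1 library from the block fit gave 0 to 4 called members: Neu1, Atp6v0d1, Hexa and Cln3 without the ctrl-EV library of number 2, Npc1 and Arsb without that of number 3, and Neu1, Atp6v0d1 and Arsb without the miR-142-5p-EV library of number 2.

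Number 1 against number 3 called 1897 to 3763 genes and 13 to 21 members when 1 library was left out, with a member median of −0.18 to −0.12. The lowest gene counts came without a library of number 1 or 3. The score of the members for number 2 went to −0.183 on the TPM scale. Signs turned for values that were not called. For Tfeb, all miR-EVs against ctrl-EVs gave 0.023 under the block with a GC correction and −0.24 to 0.12 with 1 library left out. For Tfe3, they gave 0.093 without the offset, 0.077 without it under the block, 0.0062 under the block with a GC correction and −0.069 to 0.096 with 1 library left out. For Mitf, they gave −0.052 to 0.17 with 1 library left out. Tfe3 in number 1 against number 3 was −0.0034 to 0.10. In number 2 without the offset Tfeb was −0.098 and Mitf −0.040. The causes were not tested.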
